A study of Homo sapiens with 6 samples.

Results

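The hypoxia-inducible factor (HIF) pathway was followed through 41 genes, comprising the HIF subunits, the enzymes that sense oxygen and destroy HIF, and known hypoxia target genes other than those of glycolysis and the VEGF family. They were taken by symbol from the 54628 gene symbols counted in each library. The cells were U87, an established human glioblastoma cell line, taken out of a co-culture with a flow sorter; the series title names astrocytes as the source of the mitochondria. One group was labelled cycling and mito received (received, n = 3 libraries), the other cycling and non mito received (not received, n = 3 libraries). The groups thus share the cell line, the co-culture and the cycling state. The labels name a state of the cells and no assigned treatment. A difference present before receipt therefore cannot be told apart from one that followed it. Below, fell and rose mean lower and higher in received than in not-received libraries. How receipt of mitochondria and cycling were read out, the species of the astrocytes, the oxygen tension and whether replicates were separate cultures are not stated in the labels. P-values therefore measure the spread between these libraries, which may be technical.

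HIF is a pair of a regulated alpha subunit and a constitutive beta subunit. In oxygenated cells prolyl hydroxylases of the EGLN family mark the alpha subunit and the VHL ubiquitin ligase sends it for degradation, while the asparagine hydroxylase HIF1AN blocks its coactivator binding. When oxygen is short, the alpha subunit persists and the pair binds the core sequence RCGTG near target genes, among them genes for pH control, collagen modification, secreted hormones and its own hydroxylases. Regulation of the alpha subunits is thus largely at the protein level, which read counts do not measure. In glioblastoma the pathway is known from the hypoxic cells around necrotic areas.

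In cells that had received mitochondria, the pathway genes that passed the test were mostly lower and the changes were small. Of the 39 members tested, 9 were lower (23.1%, against 9.67% of all 14100 genes tested) and 2 were higher (5.13%, against 9.21% of all genes) at an adjusted p under 0.05 in edgeR's quasi-likelihood test. Calls in either direction were 11 of 39, beside 18.9% of all genes tested. PPFIA4, ZNF395, ANKZF1, KDM3A, EGLN1, CA9, KDM4B, CITED2 and PLOD1 fell, and STC1 and ANKRD37 were called higher, the latter a barely detected gene that passed the filter on low counts only through its received libraries. EGLN2 and INHA had too few counts to be tested. The median log2 fold change of the 39 members was -0.08, beside -0.0012 for all genes tested. A fitted difference of at least 2-fold was found in 3 of the 39 (PPFIA4, HILPDA and ANKRD37), beside 617 of all 14100 genes. In bulk libraries a lower level in all cells and loss from some cells cannot be told apart. The libraries of the 2 groups did not overlap in 17 of 39 members (43.6%), close to the 39.0% of all genes tested. Of these, received was higher in 7 and lower in 10, beside 2756 and 2747 of all genes. By sign alone, 17 members had positive and 22 negative fold changes, beside 7025 and 7075 of all genes. These splits were more even than that of the calls. Without received replicate 2 or 3 the count of members called lower was 5 or 4. Without received replicate 2 the count called higher was 0. Calls over all genes dropped as well in these fits. Lower calls went from 1364 to 691 or 748, and higher calls from 1298 to 604 without received replicate 2.

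**Figure D1:**
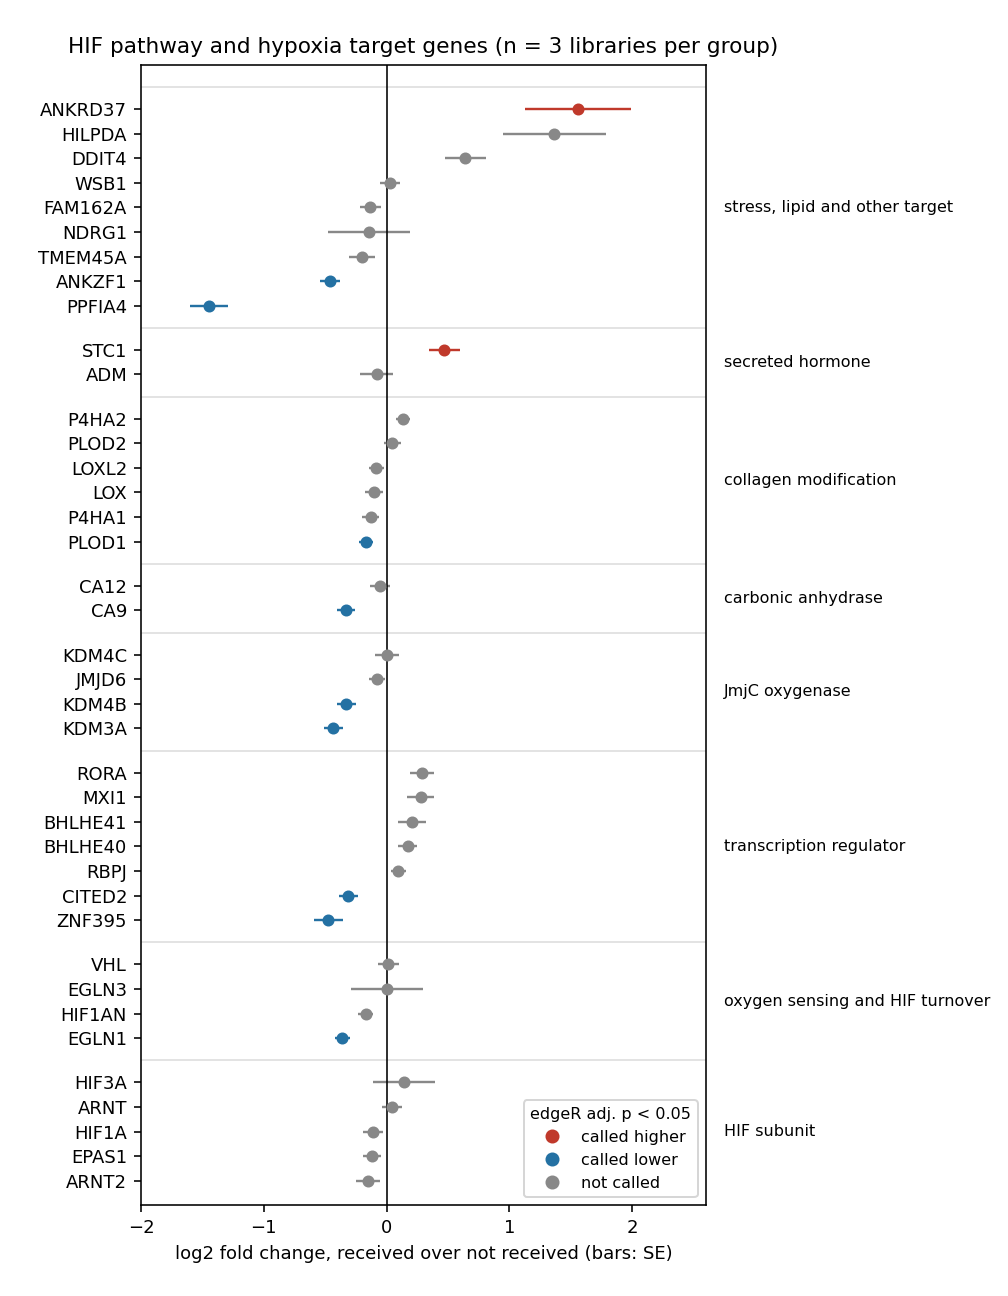
Log2 fold change (x axis, received over not received, bars give the SE, n = 3 libraries per group) of the 39 tested members (y axis), grouped by role; colours mark the edgeR calls. Blue points, the 9 genes that fell, lie between -1.45 for PPFIA4 and -0.17 for PLOD1, and all 5 HIF subunits are grey.

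Total counts ran from 17879552 to 46392491 per library, so that 3 counts correspond to 0.0661 to 0.167 CPM (read counts scaled to library size and TMM composition factors, the unit of all levels given here). Not-received replicate 2 was the deepest library and stood apart on the first principal component (-44.43, against -13.83 and -14.76 in the other libraries of its group), and without it 10 members were lower and 3 higher. Of the markers of astrocytes, the other cells of the co-culture, AQP4, ALDH1L1 and GJB6 were at 0 in all libraries, GFAP and SLC1A2 stayed below 0.6 CPM, and 1 of the 10 rose (GJA1, at over 200 CPM in all libraries). SLC1A3 and SLC4A4, the other astrocyte markers tested, had log2 fold changes of -0.20 ± 0.10 and -0.10 ± 0.10 (SE) and were not called. The summed astrocyte marker level was 311 to 339 CPM in received and 244 to 288 CPM in not-received libraries, most of it GJA1. Its part in the results below was not tested. Of 6 genes chosen to mark U87 and similar glioma lines, all were detected in every library; VIM and NES were among the 3 that rose, and CD44 and CHI3L1 fell.

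Promoters of genes that fell are shown here because they hold the core sequence that HIF binds. The sequences are from RefSeq (GRCh38.p14), run from 250 bases before to 50 bases after the gene's start and read 5′ to 3′ on the gene's strand, and capitals mark each match to ACGTG or GCGTG on either strand. The 6 with the lowest p-values among the called members with an entry are given; for genes with several starts, the entry with the most matches was taken. PPFIA4 lies at chr1:203026241-203026540 (plus strand), EGLN1 at chr1:231422238-231422537 (minus), KDM3A at chr2:86441121-86441420 (plus), CA9 at chr9:35673678-35673977 (plus), KDM4B at chr19:4968863-4969162 (plus) and CITED2 at chr6:139374599-139374898 (minus).
PPFIA4: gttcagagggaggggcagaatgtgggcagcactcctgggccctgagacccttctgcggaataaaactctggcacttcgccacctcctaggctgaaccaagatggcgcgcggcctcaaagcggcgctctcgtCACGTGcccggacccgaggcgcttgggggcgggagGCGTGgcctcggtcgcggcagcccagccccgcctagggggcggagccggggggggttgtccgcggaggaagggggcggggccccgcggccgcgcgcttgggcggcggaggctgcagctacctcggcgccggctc
EGLN1: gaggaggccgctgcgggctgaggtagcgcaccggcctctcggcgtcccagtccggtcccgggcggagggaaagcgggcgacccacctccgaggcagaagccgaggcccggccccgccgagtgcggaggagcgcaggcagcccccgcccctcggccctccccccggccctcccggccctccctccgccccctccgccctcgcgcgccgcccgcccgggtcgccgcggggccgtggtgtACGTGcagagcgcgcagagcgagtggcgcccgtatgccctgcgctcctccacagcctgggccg
KDM3A: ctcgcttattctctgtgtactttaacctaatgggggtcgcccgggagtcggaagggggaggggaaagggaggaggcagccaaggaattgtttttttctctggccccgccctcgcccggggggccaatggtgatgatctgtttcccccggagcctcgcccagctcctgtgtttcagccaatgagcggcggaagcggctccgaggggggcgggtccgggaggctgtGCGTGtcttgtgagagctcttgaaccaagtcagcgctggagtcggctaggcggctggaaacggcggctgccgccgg
CA9: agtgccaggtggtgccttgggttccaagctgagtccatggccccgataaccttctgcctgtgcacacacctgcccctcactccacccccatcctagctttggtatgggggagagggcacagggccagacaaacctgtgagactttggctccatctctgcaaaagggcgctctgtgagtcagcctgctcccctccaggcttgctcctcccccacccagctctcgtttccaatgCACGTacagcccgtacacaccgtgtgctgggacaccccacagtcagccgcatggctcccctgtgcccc
KDM4B: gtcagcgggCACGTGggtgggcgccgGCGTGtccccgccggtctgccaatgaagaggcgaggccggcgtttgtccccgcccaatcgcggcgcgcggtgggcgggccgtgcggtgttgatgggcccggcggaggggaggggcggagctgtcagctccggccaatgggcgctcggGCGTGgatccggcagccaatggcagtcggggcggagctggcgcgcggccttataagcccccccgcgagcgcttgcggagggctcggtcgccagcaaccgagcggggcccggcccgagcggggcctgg
CITED2: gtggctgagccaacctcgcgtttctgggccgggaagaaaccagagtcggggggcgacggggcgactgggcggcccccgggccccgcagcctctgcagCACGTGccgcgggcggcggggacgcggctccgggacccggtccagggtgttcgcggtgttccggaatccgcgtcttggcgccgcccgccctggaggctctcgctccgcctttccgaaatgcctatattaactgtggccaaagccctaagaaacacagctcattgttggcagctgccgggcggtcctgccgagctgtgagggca
CA9 has its single match, on the opposite strand, 18 bases before the start, and EGLN1 has one 13 bases before its start. PPFIA4, KDM4B and CITED2 each hold CACGTG, a palindrome that counts as a match on both strands and is also the site of basic helix-loop-helix proteins outside the HIF family. In KDM3A the single match is GCGTG, 26 bases before the start. A match of either core was found in 33 of 47 entries of 32 members (70.2%), in 48.4% of all 35116 entries and in 60.0% of the 15350 entries of genes tested here. All 11 entries of 8 called members held one, as did 20 of 33 entries (60.6%) of members tested and not called. ANKRD37, which was called higher, is among the 8. Counted by gene, a match was found in all 8 called members with an entry and in 16 of 22 members with an entry tested and not called. The called members ZNF395, ANKZF1 and STC1 had no entry and were not examined. The same count was 7325 of 10538 for all genes tested that have an entry. Entries of one gene can overlap, and a match in these letters is not a measured binding site.

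None of the messenger RNAs of the HIF subunits passed the test. HIF1A, which encodes the main alpha subunit, stood at 418, 454 and 416 CPM in received replicates 1, 2 and 3 and at 411, 530.1 and 449 CPM in not-received replicates 1, 2 and 3. The groups overlapped, with not-received replicate 2 the highest library (log2 fold change -0.11 ± 0.08 SE, edgeR adjusted p = 0.391). EPAS1, which encodes the alpha subunit of HIF-2, stood at 157, 167 and 161 CPM in received and 155, 192 and 178 CPM in not-received libraries (-0.12 ± 0.07, edgeR adjusted p = 0.279). ARNT, the common beta subunit, had 54.2, 52.9 and 53.9 CPM in received and 45.8, 57.3 and 52.7 CPM in not-received libraries, again overlapping (0.04 ± 0.08, edgeR adjusted p = 0.755). Its paralog ARNT2 had a log2 fold change of -0.15 ± 0.09, and HIF3A, an alpha subunit whose short forms can oppose the others, was at 1.47 to 2.73 CPM over all libraries. Of the 5 subunit genes 0 were called by edgeR, DESeq2 or limma-voom, and 0 had an unadjusted edgeR p under 0.05. Over all genes tested edgeR called 18.9%. For every subunit gene not-received replicate 2 was the highest library.

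Among the oxygen sensors, EGLN1 fell and the others did not pass the test. It was 1 of 4 tested genes (25%), against 9.67% of all genes called lower. EGLN1 encodes PHD2, the main prolyl hydroxylase of HIF in most cells, and is itself a HIF target. Its level was 86.1, 88.0 and 83.0 CPM in received and 112, 104 and 115 CPM in not-received libraries. The groups did not overlap, with the highest received library below the lowest of the not-received ones, and the gene fell by 0.36 ± 0.06 on the log2 scale (22.1%, edgeR adjusted p = 0.00144). HIF1AN, the asparagine hydroxylase, had 76.0, 83.2 and 82.4 CPM against 90.5, 91.2 and 89.5 CPM, without overlap but not called (-0.17 ± 0.06, edgeR adjusted p = 0.0718). VHL, the substrate receptor of the ligase, was at 76.0, 74.5 and 77.1 CPM in received and 81.9, 64.6 and 79.6 CPM in not-received libraries (0.02 ± 0.08, edgeR adjusted p = 0.917). EGLN3, a strongly hypoxia-inducible hydroxylase, had close means in both groups, 13.0 ± 5.65 and 13.1 ± 0.412 CPM (SD, n = 3 each), but the received libraries were far apart at 19.5, 10.5 and 9.06 CPM around not-received libraries of 12.8, 12.9 and 13.6 CPM. EGLN2, the remaining hydroxylase, was listed with 0 to 7 counts per library. It lies under the readthrough gene RAB4B-EGLN2 in RefSeq, and the labels do not say how reads shared by genes were assigned, so its level is uncertain.

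CITED2 and ZNF395 fell among the 7 transcriptional regulators (28.6%, against 9.67% of all genes called lower). The 5 others had positive fold changes that were not called. CITED2 is a HIF target that competes with HIF for the coactivators CREBBP and EP300. It stood at 31.2, 30.0 and 27.4 CPM in received and 34.8, 38.9 and 36.0 CPM in not-received libraries, a narrow gap without overlap (log2 fold change -0.31 ± 0.08 SE, edgeR adjusted p = 0.0166, up to 0.0963 and not called without received replicate 2 or 3). ZNF395, a hypoxia-induced zinc finger protein, was at 95.3, 80.0 and 71.8 CPM in received and 100.3, 125 and 117 CPM in not-received libraries. Received replicate 1 came close to the lowest not-received library (-0.47 ± 0.11, edgeR adjusted p = 0.0229). The call of ZNF395 was lost on leaving out received replicate 2, received replicate 3 or not-received replicate 3, and with a replicate block (adjusted p up to 0.101). The circadian repressors BHLHE40 and BHLHE41 had log2 fold changes of 0.17 ± 0.08 and 0.21 ± 0.11. The nuclear receptor RORA (0.29 ± 0.10), the MYC antagonist MXI1 (0.28 ± 0.11) and the Notch effector RBPJ (0.10 ± 0.06) were the others. Over these 5 genes the edgeR adjusted p-values ran from 0.057 (RORA) to 0.284 (RBPJ). The groups of RORA and MXI1 did not overlap, though the nearest libraries of MXI1 both stood at 24.01 CPM.

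Of the 4 JmjC oxygenases, iron-dependent enzymes that use oxygen to demethylate or hydroxylate proteins, KDM3A and KDM4B fell. They make 50% of these genes, against 9.67% of all genes called lower, but 4 genes are too few to describe the class. KDM3A, a demethylase of histone H3 lysine 9, was at 58.8, 55.5 and 48.5 CPM in received and 71.5, 77.2 and 71.2 CPM in not-received libraries. It fell by 0.44 ± 0.08 on the log2 scale (edgeR adjusted p = 0.00189), and the gap between the groups was wider than the range of either. KDM4B, a demethylase of trimethylated lysine 9, had 45.8, 41.4 and 41.4 CPM in received and 53.5, 58.1 and 49.6 CPM in not-received libraries (-0.33 ± 0.08, edgeR adjusted p = 0.0113). Its groups did not overlap, but it was not called on leaving out received replicate 2 or 3 (adjusted p up to 0.0745 by edgeR). KDM4C (0.00 ± 0.10) and JMJD6 (-0.08 ± 0.07) were not called, and JMJD6 overlaps METTL23 in RefSeq.

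CA9, a cell surface carbonic anhydrase and one of the most widely used hypoxia markers, fell modestly. Its level was 267, 242 and 219 CPM in received and 305, 288 and 323 CPM in not-received libraries. No received library reached the lowest not-received one, and the fold change was -0.33 ± 0.07 on the log2 scale (20.4% lower, edgeR adjusted p = 0.00738, and 0.0584 without received replicate 3). CA12, a related surface enzyme that is less tightly tied to HIF, was at 237, 229.7 and 198 CPM in received and 205, 243 and 239.7 CPM in not-received libraries. The groups overlapped and the gene was not called (-0.05 ± 0.08, edgeR adjusted p = 0.696).

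Of the 6 enzymes of collagen modification, 1 was called (16.7%, close to the 18.9% of all genes tested). All had log2 fold changes between -0.17 and 0.13. PLOD1, a lysyl hydroxylase, was at 542, 513 and 519.9 CPM in received and 572, 619 and 579.5 CPM in not-received libraries (log2 fold change -0.17 ± 0.06 SE). The groups did not overlap, but the edgeR adjusted p of 0.0497 was just under the threshold, and the call was lost in 10 of 13 alternatives (edgeR adjusted p up to 0.194). The prolyl hydroxylase subunits P4HA1 and P4HA2 went in different directions without being called (-0.13 ± 0.07 and 0.13 ± 0.06). The groups of P4HA2 did not overlap, with the received libraries higher. PLOD2 (0.05 ± 0.07), LOX, the secreted lysyl oxidase (-0.10 ± 0.07), and LOXL2 (-0.08 ± 0.06) were not called.

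STC1, which encodes the secreted glycoprotein hormone stanniocalcin, rose. It was at 251, 222 and 211 CPM in received and 134, 181 and 177 CPM in not-received libraries (log2 fold change 0.47 ± 0.12 SE, edgeR adjusted p = 0.0382). All 3 received libraries lay above the not-received ones, among which replicate 1 was lowest. The call was lost when any 1 received library or not-received replicate 3 was left out, and in the fit with a replicate block (edgeR adjusted p up to 0.109). ADM, the vasodilator peptide adrenomedullin, was at 67.7, 51.9 and 45.3 CPM in received and 62.1, 57.0 and 55.7 CPM in not-received libraries (-0.08 ± 0.14, edgeR adjusted p = 0.723). Its received libraries lay on both sides of the not-received ones. INHA, the inhibin alpha chain, had 0 to 3 counts per library, at or under the floor of 3 counts, and gets no fold change.

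The remaining 9 targets held the largest changes in both directions. PPFIA4, a liprin scaffold protein whose gene is induced by hypoxia in several cell types, had 10.8, 8.69 and 8.12 CPM in received and 25.1, 29.8 and 20.2 CPM in not-received libraries. It fell by 1.45 ± 0.16 on the log2 scale (63.4%, edgeR adjusted p = 1.80e-04), and the highest received library was well below the lowest not-received one. ANKZF1, which acts in quality control of stalled ribosomes, fell from 37.8, 38.6 and 33.3 CPM to 27.2, 27.3 and 25.5 CPM in received libraries (-0.46 ± 0.08, edgeR adjusted p = 0.0018). ANKZF1 overlaps GLB1L in RefSeq, and PPFIA4 and EGLN1 each overlap an uncharacterised locus. Of all 41 members, 22 overlap another RefSeq gene, and only some of these are named here. ANKRD37, a small ankyrin repeat protein, was barely detected, with 20, 15 and 22 counts in received and 7, 8 and 11 counts in not-received libraries (1.56 ± 0.43, edgeR adjusted p = 0.0235). It passed the filter on low counts through its received libraries, only 1 of 3 not-received libraries reaching the level of 0.504 CPM, so a difference was built into its selection, and the call was lost in 5 of 12 alternatives (DESeq2, and leaving out not-received replicate 2 or any 1 received library; adjusted p up to 0.118). Its gene body overlaps LRP2BP and UFSP2.

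**Figure D2:**
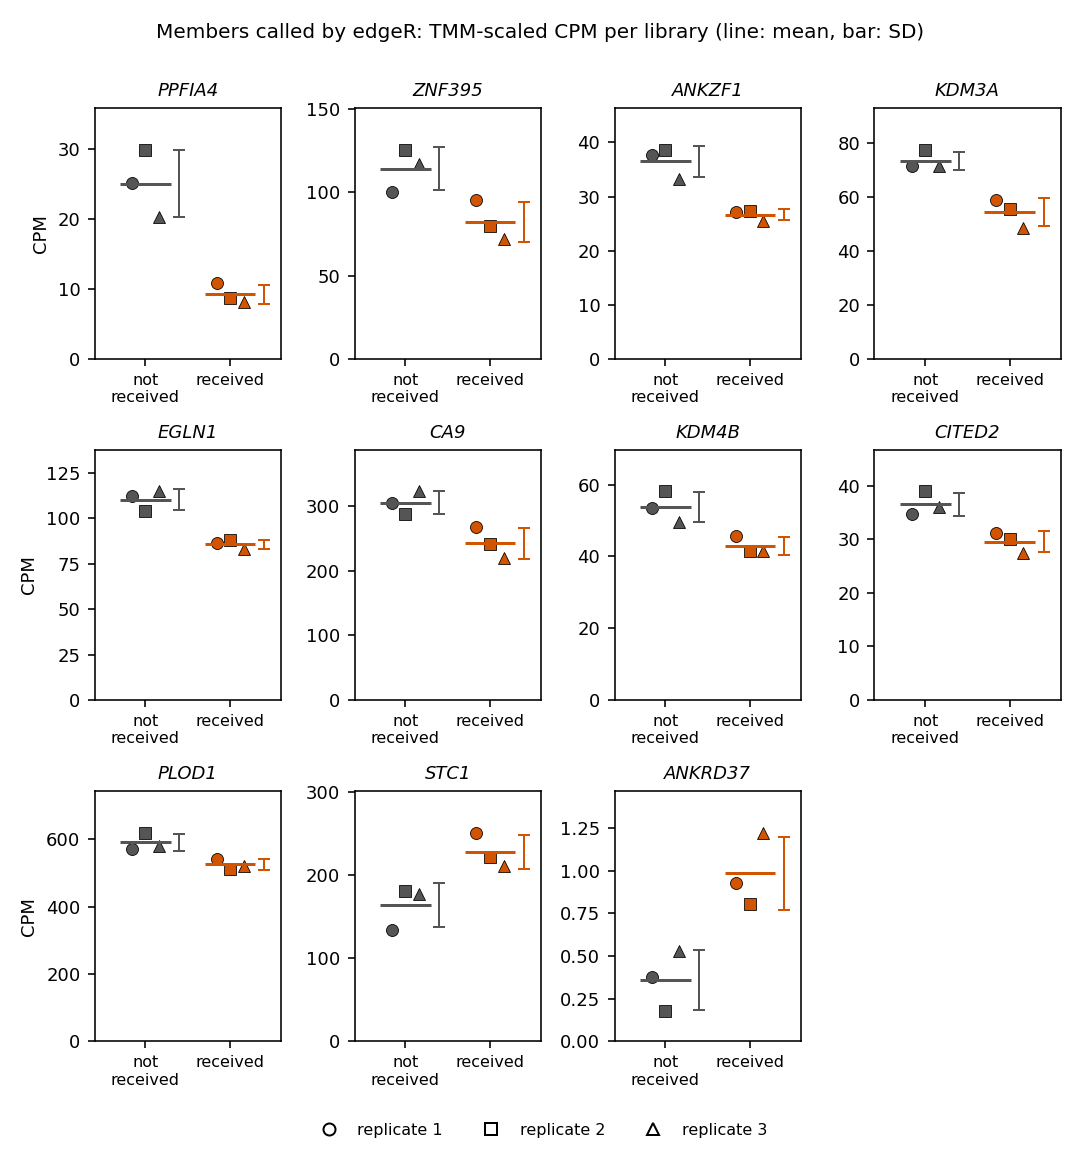
CPM (y axis, linear from 0) in each of the 6 libraries for the 11 called members; lines give the mean and bars the SD of 3 libraries, and symbols mark the replicate number. In each panel the 3 received libraries lie on one side of the 3 not-received ones, from PPFIA4 (9.20 against 25.0 CPM on average) to ANKRD37 (0.986 against 0.361 CPM).

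DDIT4 and HILPDA were higher in every received library than in any not-received one but did not pass the test. DDIT4 encodes REDD1, an inhibitor of mTORC1 that responds to hypoxia and to several other stresses. It was at 421, 338 and 303 CPM in received and 199.6, 214 and 267 CPM in not-received libraries (log2 fold change 0.64 ± 0.17 SE, edgeR adjusted p = 0.0533). The gene passed in 7 of 13 alternatives, DESeq2 among them (adjusted p of 0.00148 to 0.199 over the edgeR, DESeq2 and limma fits). HILPDA, a lipid droplet protein that inhibits fat breakdown, was at 91.6, 52.7 and 34.7 CPM in received and 21.8, 21.4 and 26.8 CPM in not-received libraries (1.37 ± 0.42, edgeR adjusted p = 0.103). Its received libraries differed 2.64-fold among themselves, and the gene passed in 3 of 13 alternatives. NDRG1, a metastasis suppressor strongly induced by hypoxia, was at 321, 196 and 145 CPM in received and 221, 239 and 273 CPM in not-received libraries, so that received replicate 1 was the highest and replicates 2 and 3 the lowest of the 6 (-0.14 ± 0.34, edgeR adjusted p = 0.806). FAM162A (-0.13 ± 0.08), WSB1 (0.03 ± 0.08) and TMEM45A (-0.20 ± 0.10) were not called.

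The hypoxia targets differed between the received libraries in a shared order. Among the 30 tested members that are neither subunits nor oxygen sensors, 20 (66.7%) were highest in received replicate 1 and lowest in received replicate 3, an order seen in 15.7% of all genes tested. Over all genes, received replicate 1 also stood apart on the first principal component, at 16.65 against 28.32 and 28.04 in the other received libraries, and its part in this order was not tested. The same order held in 9 of 20 glycolytic targets (45.0%) and 11 of 21 other hypoxia targets (52.4%). Received replicate 1 exceeded the mean of replicates 2 and 3 by 2.10-fold for HILPDA, 1.99-fold for EGLN3, 1.88-fold for NDRG1, 1.39-fold for ADM and 1.32-fold for DDIT4, members picked here after their values were seen. HIF1A and EPAS1 did not have this order (0.96 and 0.961 of that mean). For most members the step was small. The median ratio of the highest to the lowest received library was 1.18 over the 39 members and 1.13 over all genes. Among the not-received libraries it was 1.19 over the members and 1.19 over all genes. A received ratio of at least 1.5 was found in 4 of 39 members (10.3%, against 13.9% of all genes). The members share the same 3 received libraries, so these counts describe those libraries and not independent observations. Without received replicate 1, the log2 fold change of EGLN3 was -0.41 (edgeR adjusted p = 0.0667) instead of 0.00, and that of NDRG1 was -0.51 (edgeR adjusted p = 0.0791).

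**Figure D3:**
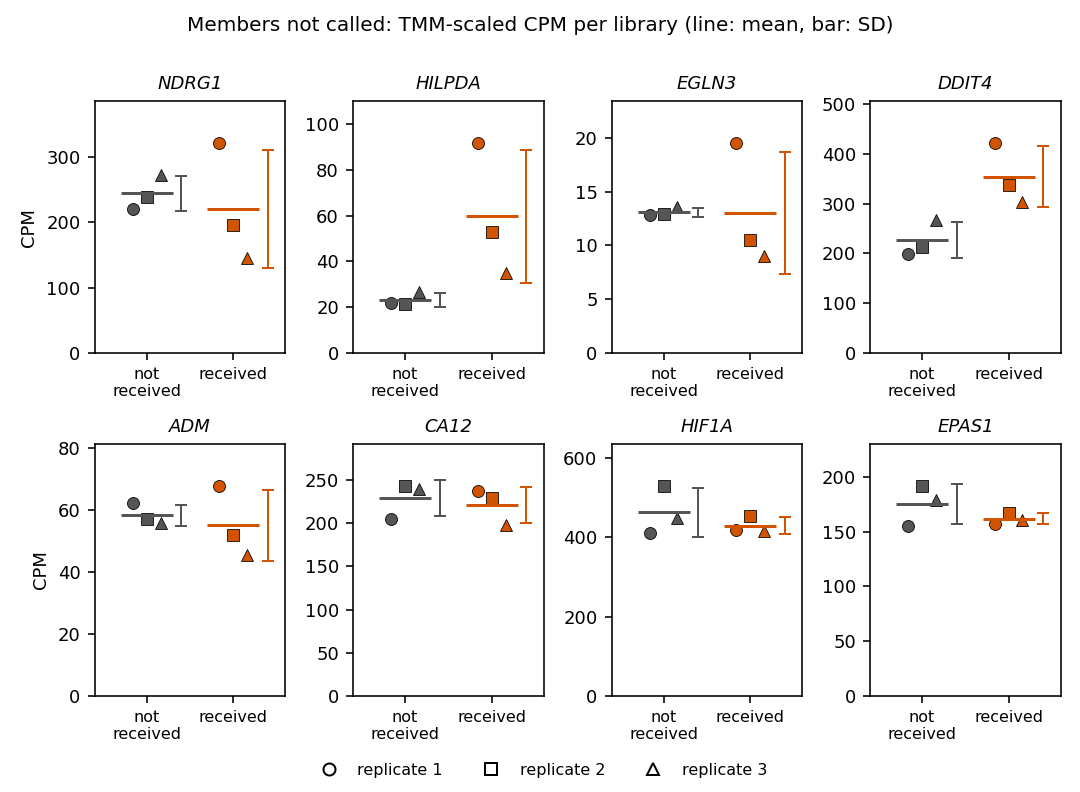
CPM (y axis, linear from 0) in each library for 8 members that were not called; lines give the mean and bars the SD of 3 libraries, and symbols mark the replicate number. Received replicate 1 (circles) is the highest of the received libraries for NDRG1, HILPDA, EGLN3, DDIT4, ADM and CA12, and not for HIF1A or EPAS1.

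Of 59 tested genes of the pathway outside the 41, in 4 lists, 18 were lower (30.5%, against 9.67% of all genes) and 3 higher (5.08%, against 9.21%). Of 20 glycolytic HIF targets tested, 8 were lower and 0 higher (40.0% lower, against 9.67% of all genes), with a median log2 fold change of -0.21. DESeq2 called 12 lower and 1 higher, beside 1449 lower and 1086 higher of all 16048 genes. At an unadjusted edgeR p under 0.05 the counts were 14 and 1, a looser cut to which the 9.67% does not apply. PDK1, a kinase that inhibits pyruvate dehydrogenase, fell from 75.9 ± 5.84 to 51.3 ± 1.45 CPM (SD, n = 3 each, log2 fold change -0.57 ± 0.07 SE, edgeR adjusted p = 1.49e-04). The lactate exporter SLC16A3 (-0.42 ± 0.09), the phosphofructokinase PFKL (-0.33 ± 0.06) and the regulatory enzyme PFKFB3 (-0.32 ± 0.06) fell as well, though SLC16A3 was not called when received replicate 2 or 3 was left out (adjusted p up to 0.0625 by edgeR). SLC2A1, the glucose transporter GLUT1, was not called (-0.20 ± 0.17, edgeR adjusted p = 0.482), but without received replicate 1 it was lower (-0.41, edgeR adjusted p = 0.00675). LDHA, normally abundant in glioma lines, had 1 to 10 counts per library, so its level cannot be read from these counts.

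Of 21 other hypoxia targets, 7 were lower (33.3%, against 9.67% of all genes) and 2 higher (9.52%, close to the 9.21% of all genes), with a median of -0.14. The adenylate kinase AK4 (-0.45 ± 0.08), the glycogen branching enzyme GBE1 (-0.39 ± 0.06) and the matrix protein TGFBI (-0.41 ± 0.06) fell. The transferrin receptor TFRC was among those that rose (0.36 ± 0.06). BNIP3, a mitophagy receptor, fell by 0.26 ± 0.08 although its groups overlapped, and was not called in 7 of 13 alternatives (edgeR or limma adjusted p up to 0.172). ERO1A, the oxidase of the endoplasmic reticulum, was not called (-0.14 ± 0.08, edgeR adjusted p = 0.232).

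Of the 4 tested angiogenic targets 0 were called by edgeR, DESeq2 or limma-voom over all libraries with the group as the single term. Over all genes tested edgeR called 18.9%. KDR had the lowest p and was the 1 gene with an unadjusted edgeR p under 0.05 (0.29 ± 0.12, edgeR adjusted p = 0.0966, and 0.0152 without not-received replicate 2). VEGFA was at 521 ± 50.2 CPM in received and 553 ± 62.7 CPM in not-received cells (-0.09 ± 0.09). ANGPTL4, named after its values were seen, was at 18.5, 9.23 and 6.56 CPM in received and 6.36, 5.35 and 5.51 CPM in not-received libraries, with received replicate 1 again far above the others (1.01 ± 0.42, edgeR adjusted p = 0.167). Its log2 fold change was 0.47 without received replicate 1, and it was called with a replicate block (adjusted p = 0.027) and without received replicate 3 (adjusted p = 0.0346). Among 14 genes of the VHL ligase, of HIF turnover and of its coactivators, 3 were lower (21.4%, against 9.67% of all genes) and 1 higher (7.14%, against 9.21%). The coactivator CREBBP (-0.41 ± 0.11), the lectin OS9 (-0.40 ± 0.07) and the chaperone HSP90AA1 (-0.17 ± 0.05) fell, and RACK1 rose (0.18 ± 0.06). Of these, OS9 kept its call in all 13 alternatives, CREBBP lost it without any 1 received library, RACK1 in 4 fits and HSP90AA1 in 8.

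**Figure D4:**
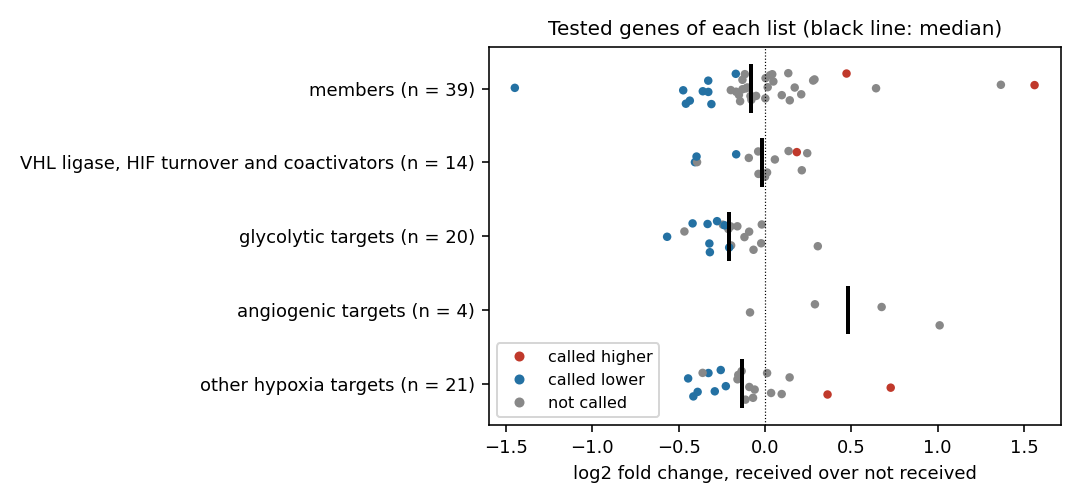
Log2 fold change (x axis, received over not received) of each tested gene of the 41 members and of 4 further lists (y axis); black lines mark medians and colours the edgeR calls. The glycolytic list has its median at -0.21 with 8 genes called lower, and the members have theirs at -0.08.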

How the data were processed

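Poly-A RNA of 6 libraries was sequenced as 150 bp read pairs, per the labels' protocols. The authors deposited raw read counts per gene symbol, 1 file per library. DESeq and R 3.6.1 appear in the submitters' processing notes; the sources used here name no aligner, counting program, build or annotation. Groups come from the titles. Counts were filtered with filterByExpr (14100 of 28833 genes with a count), scaled by TMM and tested with edgeR 4.0.16 in R 4.3.3 (glmQLFit robust, glmQLFTest, group as single term). Adjusted p-values are Benjamini-Hochberg over all genes tested; SEs were computed as the absolute fold change (log2) over the root of F. The procedure was tested on simulated data. DESeq2 1.42.0 and limma 3.58.1 (voom) were among 13 alternatives. Libraries of a group differed by more than sampling noise, with 3.23 to 18.5 chi-square units per gene. The floor of 3 counts covers counting error only. Members and lists were chosen with earlier results of these data known. Values per library are given for called members and a set of key genes, and for each further list the up to 4 called genes with the largest change. RefSeq promoter entries matched 32 members; 42 of 47 entries were found in the sense of a GENCODE transcript. A gene that the rule for the further lists names is not reported here.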

Additional observations from a re-analysis of the deposited data

How the results depend on the processing

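EGLN1, KDM3A, ANKZF1 and PPFIA4 kept their call and direction in all 13 alternatives. The other 7 called members lost their call in at least 1 alternative, as given beside each; the cause was not tested. RORA was called higher in 4 alternatives, MXI1, BHLHE40 and P4HA2 in 1 each, and TMEM45A lower in 1. With 1 library left out, the count of members called lower was 4 to 10 and of those called higher 0 to 3. Over all genes these counts were 691 to 1579 and 604 to 1356, against 1364 and 1298 with all libraries. The higher count of members was 5 with scaling by library size alone and 5 with no low-count filter (1683 and 1456 of all genes). With library size alone, 60.3% of all calls were higher, against 48.8% with composition factors. The median of the members was -0.11 to -0.021 with 1 library left out and -0.042 with library size alone. The further lists had 8 to 23 genes lower and 2 to 4 higher with 1 library left out, and 5 higher with no low-count filter. Some genes that were not called changed sign with 1 library left out: log2 fold changes ranged from -0.052 to 0.37 for HIF3A, -0.038 to 0.12 for ARNT, -0.41 to 0.21 for EGLN3, -0.091 to 0.080 for VHL, -0.035 to 0.061 for KDM4C, -0.12 to 0.029 for CA12, -0.0010 to 0.11 for PLOD2, -0.25 to 0.046 for ADM, -0.51 to 0.088 for NDRG1, -0.039 to 0.11 for WSB1 and -0.16 to 0.0093 for VEGFA. The sign also turned for EGLN3 with limma-voom (-0.056) and the replicate block (-0.074), and for KDM4C with limma-voom (-0.013). The deviations of same-numbered libraries from their group means had correlations of -0.2, -0.068 and 0.054. With 3 libraries per group these values cannot decide whether the libraries were paired. With the replicate block 7 members were lower and 2 higher (1384 and 1252 of all genes). The order of the received libraries, examined after the data were seen, held in 20 of 30 targets with each of the 3 scalings. EGLN2, INHA and ANKRD37 stood at about 1 CPM or less, where counting error is large.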
